A study of Mus musculus with 10 samples.

Results

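The cadherin switch was followed in mouse mammary tumors through 7 genes: Cdh1 (E-cadherin), Cdh2 (N-cadherin), Cdh3 (P-cadherin), Cdh11 (OB-cadherin), Cdh13 (T-cadherin), Epcam and Vim (vimentin). They were chosen by gene name, synonyms included, from the array files, and 13 probes of these 7 genes were found among 41174 probes. Of the 19505 genes that could be named on the array, these are 7. RNA of 10 tumors was measured, 1 array per tumor, with 5 sarcomatoid carcinomas and 5 adenocarcinomas. All tumors arose in, or were grown from cells of, C57BL/6 mice in which MMTV-Cre, a Cre recombinase driven by a mouse mammary tumor virus promoter, switched on mutant alleles.

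The 5 adenocarcinomas (tumors 105, 131, 470, 17 and 85) were primary mammary tumors with Pik3ca H1047R and Trp53 R270H both switched on by MMTV-Cre. Per the study's methods the sarcomatoid group held a primary tumor of the same genotype, a Pik3ca H1047R;MMTV-Cre primary with a spontaneous Trp53 R245H mutation, and a Trp53 R270H;MMTV-Cre primary. It also held a lung tumor grown from a cell line of each of the first pair after tail vein injection. The labels number the mammary sarcomatoid tumors 323, 307 and 594 and the lung tumors 323 and 307, without giving genotypes. They tag 323 and 307, at both sites, as sarcomatoid adenocarcinoma and only 594 as sarcomatoid carcinoma. The methods call the whole group sarcomatoid carcinoma, and that name is used here. By elimination tumor 594, the number with no lung tumor, would be the primary with mutant Trp53 alone. The sarcomatoid group thus had 5 arrays but 3 tumor origins, 1 cell line lay behind each lung tumor, and every adenocarcinoma was mammary. Growth in culture and growth in the lung cannot be told apart in the lung tumors, and the labels do not say whether the other tumors came from separate animals.

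Classical cadherins are membrane proteins that hold neighbouring cells together, each binding its own kind across the gap and catenins inside the cell. Epithelial cells carry E-cadherin and Epcam, an adhesion protein of the lateral membrane, while fibroblasts and other mesenchymal cells carry N-cadherin or OB-cadherin and build their intermediate filaments from vimentin. In epithelial-mesenchymal transition (EMT) a carcinoma cell loses the first set and gains the second, which is called the cadherin switch. Snail and Zeb factors, which repress Cdh1, bind a short DNA word called the E-box.

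Each value below is a log2 ratio of tumor over a common reference RNA, taken from a 2-colour array after loess normalization. An offset of 50 was added to both dye signals, which makes ratios smaller where a signal is dim. A difference of 1 unit is therefore a doubling only where both signals are bright. The labels give the green dye Cy3 as that of the tumor. The green signals were the more uniform ones across arrays (mean SD of the log2 signal 0.737, against 0.975 in red), and the study's own table of ratios ran as red over green. Red was therefore read as the tumor and green as the reference, which is likely but not settled. If the dye label is right, every sign below turns. All 13 probes were also present in the deposited table.

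One array stood apart from its group. Tumor 470 is labelled as an adenocarcinoma, but its mean log2 ratio over 7 epithelial markers (Krt8, Krt18, Krt19, Cldn3, Cldn4, Esrp1 and Elf3) was -1.70, whereas the other 4 adenocarcinomas lay between 1.75 and 2.30. The lung sarcomatoid tumors lay at -1.90 and -1.77 and the mammary ones between -0.08 and 0.20. Tumor 470 was also highest of all arrays for 7 fibroblast markers, at 2.05, and above the other adenocarcinomas for 7 myeloid markers, at 2.18. For the members, the difference between all sarcomatoid carcinomas and the adenocarcinomas is therefore given with and without it. For the gene lists this is done only where stated. Since tumor 470 was singled out by its values, a result without it shows what rests on this array and is no separate test. In the comparison of all sarcomatoid carcinomas with adenocarcinomas, leaving out any other single array called 0 probes (limma, adjusted p below 0.05). Across arrays, 52.2% to 83.0% of probes were well above background in red.

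Cdh1, the cadherin of epithelial junctions, was measured by 1 probe at chr8:105268557-105268616 (mm7 build, plus strand) printed 10 times on each array, of which 7 to 10 spots per array could be used. Its log2 ratio was 5.60 in tumor 105, 5.48 in 131, 1.74 in 470, 4.30 in 17 and 3.10 in 85. In the sarcomatoid carcinomas it was 4.87 (323), 3.44 (307) and 3.21 (594) in the mammary gland and 1.64 (323) and 0.41 (307) in the lung. Every tumor was above the reference, the lung tumors and tumor 470 were lowest, and the mammary sarcomatoid carcinomas lay inside the range of the adenocarcinomas.

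The SD over the replicate spots was 0.0723 to 0.258, so most of the order of the tumors was larger than spot error. Of the 9 gaps between neighbours in that order, 6 were larger than the pooled SD of the spots. The 3 that were not lay between lung 323 and 470, between 85 and 594, and between 131 and 105. Spots are technical repeats on 1 array and say nothing of the spread between tumors. On the array of tumor 85 the green signal of Cdh1 was not well above background, so its ratio there rests on a dim reference.

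**Figure D1:**
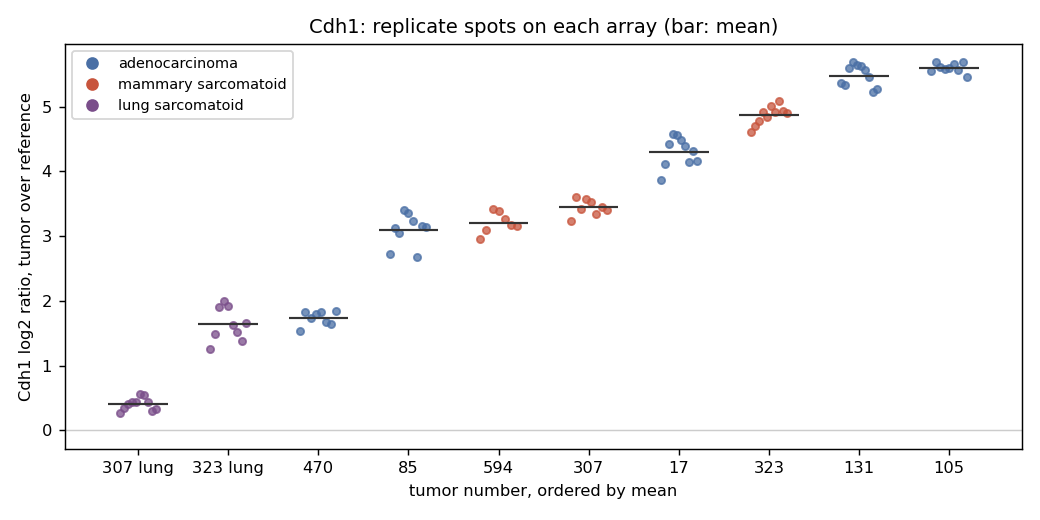
Each point is 1 spot of the Cdh1 probe and the bar is the array's mean, on an axis of log2 ratio of tumor over reference, with the 10 tumors in order of the mean and coloured by group. The means run from 0.41 in lung tumor 307 to 5.60 in adenocarcinoma 105, and the spots of an array lie close to their bar.

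Cdh1 averaged a log2 ratio of 2.71 ± 1.72 (SD, n = 5) among the sarcomatoid tumors, against 4.04 ± 1.64 (SD, n = 5) among the adenocarcinomas. The difference on the log2 scale was -1.33 (SE 0.97, 95% confidence interval -3.49 to 0.83, limma adjusted p = 0.720), a ratio of 2.51, and the groups overlapped. An exact permutation test over the 10 tumors gave p = 0.238 (two-sided). Without tumor 470 the difference was -1.91 (adjusted p = 0.383). Between mammary sarcomatoid carcinomas and adenocarcinomas it was -0.20 (adjusted p = 0.955, interval -2.24 to 1.83), and -0.78 (adjusted p = 0.659) without tumor 470. In bulk tumors, fewer cells of a type and less RNA per cell cannot be told apart, for this gene and those that follow.

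Epcam, which the array files still name Tacstd1, was measured by 1 probe at chr17:85952074-85952902 (mm7, plus strand) and was well above background in every tumor. Its log2 ratio was 3.29 in tumor 105, 2.32 in 131, -2.62 in 470, 2.88 in 17 and 3.79 in 85. Among sarcomatoid carcinomas it was 1.46 (323), 1.38 (307) and 0.19 (594) in the mammary gland and -2.20 (323) and -2.76 (307) in the lung. The values fell into a high set of 4 adenocarcinomas, a middle set of the mammary sarcomatoid carcinomas and a low set of both lung tumors with tumor 470.

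Epcam averaged -0.39 ± 1.99 (SD, n = 5) among the sarcomatoid tumors, against 1.93 ± 2.60 (SD, n = 5) among the adenocarcinomas. The difference was -2.32 (SE 1.33, interval -5.29 to 0.65, limma adjusted p = 0.623), a ratio of 4.99, with an exact permutation p of 0.151. Without tumor 470 it was -3.46 (SE 0.93, interval -5.58 to -1.34, adjusted p = 0.116). The groups then did not overlap, the highest sarcomatoid value being 1.46 and the lowest adenocarcinoma value 2.32. Among all probes 6.55% did not overlap in that setting, against 1.35% with all 10 tumors. Between mammary sarcomatoid carcinomas and adenocarcinomas the difference was -0.92 (adjusted p = 0.846), and -2.06 (adjusted p = 0.0853) without tumor 470, the lowest adjusted p of any member probe in any setting.

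The reference table held promoters for Epcam and Vim, and these are shown because the repressors of the epithelial state bind the E-box. The sequences are RefSeq's (GRCm38.p6), each the 250 bases before the gene's start at chr17:87635729-87635978 and chr2:13574061-13574310, both on the plus strand. Capitals mark the E-box words CAGGTG or CACCTG, which are reverse complements, so both strands were searched.
Epcam: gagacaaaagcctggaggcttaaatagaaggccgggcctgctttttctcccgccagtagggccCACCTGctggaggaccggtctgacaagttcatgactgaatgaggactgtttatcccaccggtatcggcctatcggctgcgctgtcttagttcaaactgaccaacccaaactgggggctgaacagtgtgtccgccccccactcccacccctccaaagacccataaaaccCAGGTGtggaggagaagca
Vim: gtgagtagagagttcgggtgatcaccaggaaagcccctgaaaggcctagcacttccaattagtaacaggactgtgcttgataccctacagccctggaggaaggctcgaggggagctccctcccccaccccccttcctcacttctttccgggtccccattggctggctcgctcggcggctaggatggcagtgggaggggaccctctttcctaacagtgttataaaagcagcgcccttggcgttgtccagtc
The Epcam window held 2 such words, CACCTG starting 187 bases and CAGGTG starting 19 bases before the start, and the Vim window held 0. Of 32851 promoter windows of this length in the table, 17.2% held at least 1 and 2.06% at least 2. A word of 6 letters is a description of the sequence and no evidence of binding.

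Cdh2, the cadherin of neural and mesenchymal cells, had 1 probe (A_51_P262773) well above background in 9 of 10 tumors, tumor 85 being the exception. Its log2 ratio was -0.98 in tumor 105, -1.20 in 131, 0.59 in 470, -0.07 in 17 and -1.48 in 85. In the sarcomatoid carcinomas it was 0.11 (323), -1.92 (307) and 1.71 (594) in the mammary gland and 1.16 (323) and 1.05 (307) in the lung. Tumor 594 was highest and tumor 307 lowest of all 10, so the mammary sarcomatoid carcinomas alone spanned the whole range.

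The Cdh2 means were 0.42 ± 1.43 (SD, n = 5) for sarcomatoid tumors and -0.63 ± 0.86 (SD, n = 5) for adenocarcinomas, a difference of 1.05 (SE 0.68, interval -0.47 to 2.57, limma adjusted p = 0.676). Without tumor 470 it was 1.35 (adjusted p = 0.424). The other 2 Cdh2 probes were well above background on 0 and 1 arrays, with ratios from -0.19 to 0.14 and from -0.06 to 0.31, and carry no fold.

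Vim, the intermediate filament protein of mesenchymal cells, was bright on every array by its probe at chr2:13521763-13521822 (mm7, plus strand). Its log2 ratio was -2.46 in tumor 105, -3.92 in 131, -0.17 in 470, -1.90 in 17 and -2.12 in 85. In the sarcomatoid carcinomas it was -1.65 (323), -1.15 (307) and -0.58 (594) in the mammary gland and -0.63 (323) and 0.09 (307) in the lung. All 5 sarcomatoid carcinomas were above 4 of the adenocarcinomas, and tumor 470 lay among the sarcomatoid ones.

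The Vim means were -0.78 ± 0.66 (SD, n = 5) for sarcomatoid tumors and -2.12 ± 1.34 (SD, n = 5) for adenocarcinomas. The difference was 1.33 (SE 0.61, interval -0.03 to 2.69, limma adjusted p = 0.516), a ratio of 2.52, with an exact permutation p of 0.0794. Without tumor 470 it was 1.82 (SE 0.47, interval 0.76 to 2.88, adjusted p = 0.102) and the groups did not overlap, as for 6.55% of all probes. For mammary tumors alone it was 0.99 (adjusted p = 0.672), and 1.47 (adjusted p = 0.220) without tumor 470. The other Vim probe was well above background on 4 arrays, with ratios from -0.24 to 0.31.

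Cdh3, the cadherin of basal and myoepithelial cells, was dim. Its probe at chr8:105154238-105154298 (mm7, plus strand), close to that of Cdh1 on the same chromosome, was not well above background in lung tumor 323 and in tumors 17 and 85. Its log2 ratio was 2.08 in tumor 105 and between -0.06 and 0.30 in the other 4 adenocarcinomas. In the sarcomatoid carcinomas it ran from -0.21 to 1.14, highest in lung tumor 307. Tumor 105 also had the highest mean of 5 basal or myoepithelial markers (Krt5, Krt14, Trp63, Acta2 and Myh11), at 2.81. The other 9 arrays lay between -0.50 and 1.69. Of these markers, Acta2 was at -0.51 in tumor 105 and higher in tumor 594, at 0.47. Tumor 105 was highest as well for the means of skeletal muscle markers (4.36) and adipocyte markers (4.10). The Cdh3 group difference was -0.23 (SE 0.41, limma adjusted p = 0.907), and -0.33 (adjusted p = 0.818) without tumor 470.

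Cdh11, a cadherin of osteoblasts and fibroblasts, had 3 probes, and they did not tell the same story. The pair at chr8:101227807-101227866 (A_51_P506204) and chr8:101227384-101227443 (A_52_P437795, both mm7, minus strand) were never more than 0.54 apart on an array. By the first of them the log2 ratio was -1.26 in tumor 105, -3.36 in 131, 0.42 in 470, -2.81 in 17 and -2.81 in 85. It was -1.20 (323), -1.82 (307) and 1.10 (594) in mammary sarcomatoid carcinomas and -3.77 (323) and 0.46 (307) in the lung. Tumor 594, lung tumor 307 and tumor 470 were high, and lung tumor 323 was the lowest of all 10.

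The third Cdh11 probe (A_52_P683146, chr8:101261817-101261876, mm7, minus strand) ran only from -0.79 to 0.50. It is the brightest of the 3 and so stood for the gene where 1 probe was needed. Its correlation over the 10 arrays with the other pair was -0.47 for each, as a description, since arrays of 1 tumor number share an origin. The array file lists for this probe a second transcript, that of 2610005L07Rik, annotated by 3 of its 4 probes on chromosome 15. The gene most alike to this probe among 17986 probes well above background on all arrays was 2610005L07Rik, with a Pearson correlation of 0.95. The array also carries probes for LOC436177 on chromosome 15, described in the file as similar to the Cdh11 precursor, and their correlations with this probe were 0.75, 0.93 and 0.94. Which transcript it measured was not tested, and Cdh11 is read here from the other pair.

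By that pair the sarcomatoid minus adenocarcinoma difference was 0.92 (limma adjusted p = 0.822) and 0.97 (SE 1.04, adjusted p = 0.816). Without tumor 470 the values were 1.51 (adjusted p = 0.538) and 1.60 (adjusted p = 0.523). The third probe gave -0.30 (SE 0.28, adjusted p = 0.790), and -0.28 (adjusted p = 0.760) without tumor 470.

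Cdh13, a cadherin anchored to the membrane by a lipid and found on vessel and smooth muscle cells, was measured at chr8:117937128-117937187 (mm7, plus strand). Its log2 ratio was 0.20 in tumor 105, -0.73 in 131, 1.44 in 470, -1.60 in 17 and -1.04 in 85. In the sarcomatoid carcinomas it was -1.05 (323), -0.44 (307) and -0.33 (594) in the mammary gland and -1.76 (323) and -0.32 (307) in the lung. Tumor 470 was the highest and the groups overlapped. The difference was -0.43 (SE 0.55, limma adjusted p = 0.852) with tumor 470 and 0.01 (adjusted p = 0.994) without it. A second Cdh13 probe was well above background on 3 arrays, with ratios from -0.17 to 0.24.

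**Figure D2:**
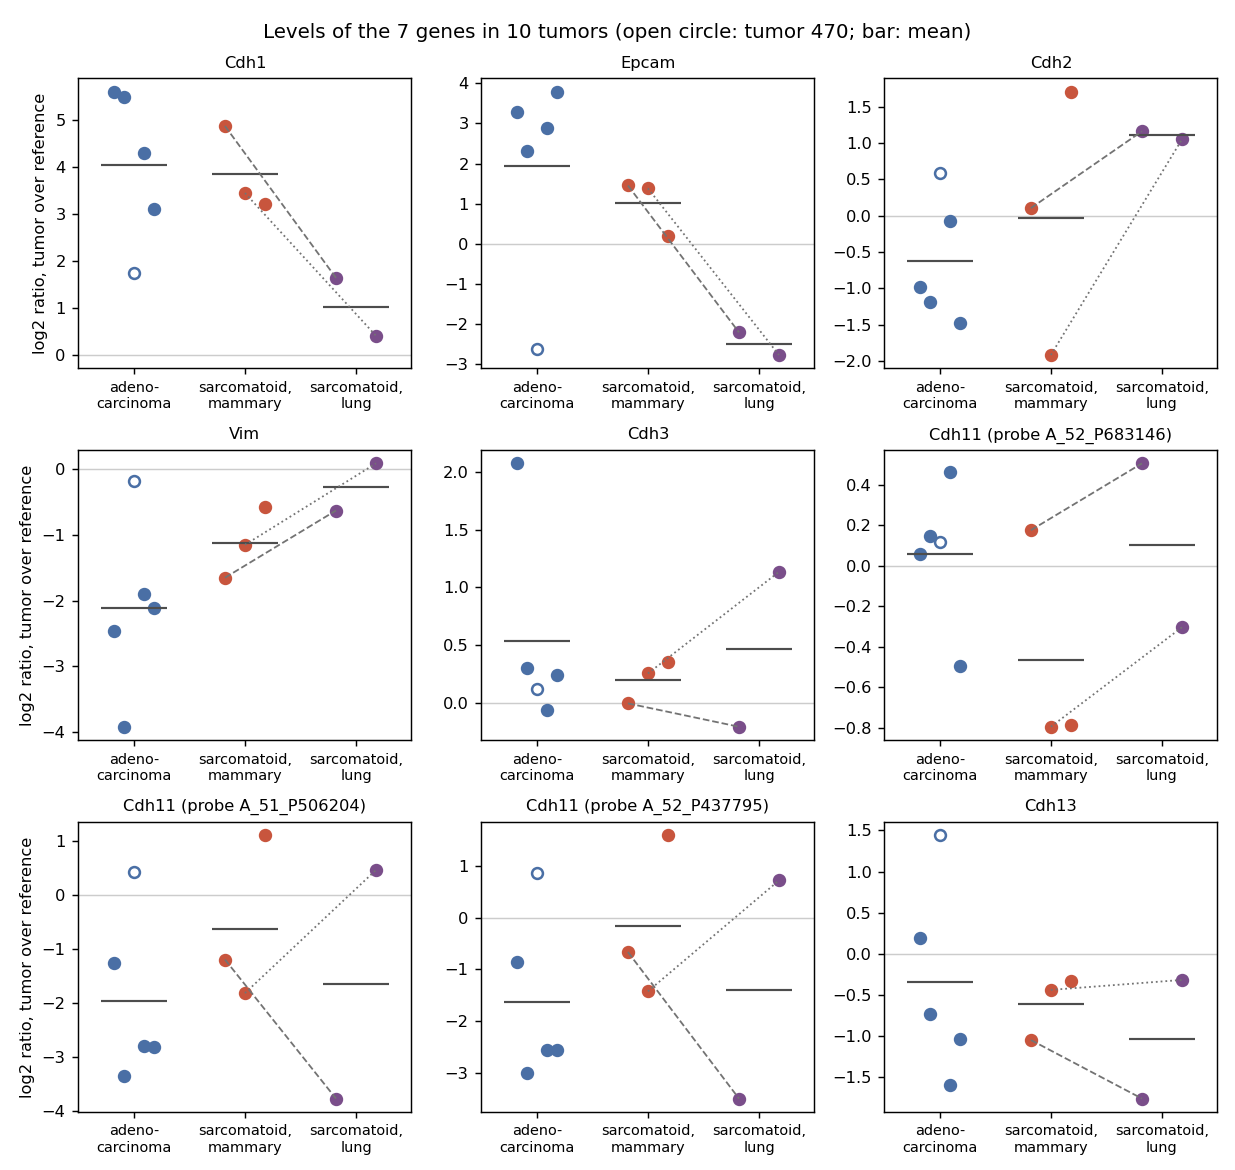
Log2 ratio of tumor over reference for the 9 described probes, 1 point per tumor, with the bar at the group mean, tumor 470 as an open circle and lines that join the mammary and lung tumors numbered 323 (dashed) and 307 (dotted). Epcam and Cdh1 are lowest in the lung tumors and in tumor 470, Vim is highest in lung tumor 307 and next in tumor 470, and the lines of Cdh11 probes A_51_P506204 and A_52_P437795 cross.

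Across the 9 probes, 0 passed an adjusted p below 0.05 for sarcomatoid carcinoma against adenocarcinoma, and 0 of them had an unadjusted p below 0.05. Over all probes, 0% passed the adjusted threshold and 9.84% had an unadjusted p below 0.05. Without tumor 470 the members with an unadjusted p below 0.05 were Epcam (lower) and Vim (higher), and 0 passed after adjustment, where 14.8% and 1.54% of all probes did. Between mammary sarcomatoid carcinomas and adenocarcinomas 0 members were called or had an unadjusted p below 0.05, against 0% and 9.07% of all probes. Without tumor 470 that fit called 0 members and 0.406% of all probes. In the permutation test over 10 tumors the smallest possible p was 0.00794 and the smallest adjusted p of any probe was 0.544, so it could call nothing. With 1 value per tumor number, 3 origins against 5, the exact permutation p was 0.286 for Cdh1, 0.161 for Epcam, 0.143 for Vim and 0.125 for Cdh2, where 0.0179 was the smallest possible.

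**Figure D3:**
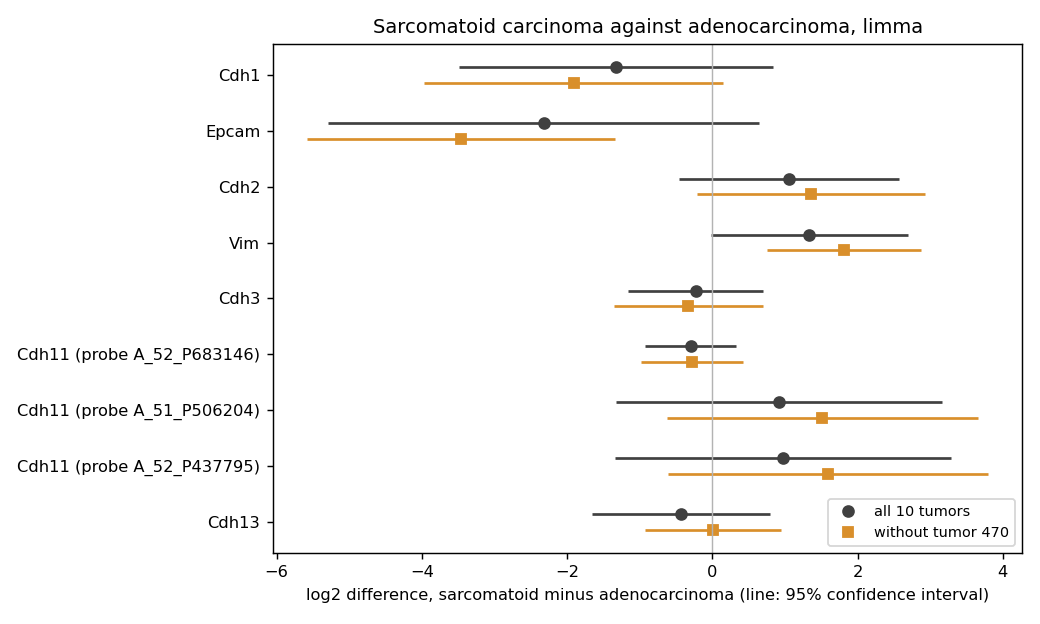
Log2 difference of sarcomatoid carcinomas minus adenocarcinomas for each described probe, with 95% confidence intervals from limma, for all 10 tumors (circles) and without tumor 470 (squares). Every interval crosses 0 with all tumors, and those of Epcam (-5.58 to -1.34) and Vim (0.76 to 2.88) lie to 1 side of 0 without tumor 470.

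The lung tumors were set against the mammary tumors of the same number, which asks whether the genes moved further from the epithelial state in cells that had grown in the lung. Cdh1 was lower in the lung by -3.23 (tumor 323) and -3.04 (tumor 307) on the log2 scale, and Epcam by -3.66 and -4.15. Vim was higher by 1.02 and 1.24 and Cdh2 by 1.06 and 2.97. Each of these differences compares 1 array with 1 array and has no replicate check. Both Cdh2 values in the lung were close to each other, so the gap between the pairs came from the mammary tumors.

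Cdh11 went opposite ways in the pairs. It was lower in the lung for tumor 323, by -2.58 and -2.84 at the concordant probes, and higher for tumor 307, by 2.28 and 2.15. The 7 fibroblast markers did not move as 1 set beside it. Their mean went from -0.74 to -1.25 in tumor 323, where 4 were lower in the lung (Lum from 5.32 to 1.88) and 3 higher (Dcn from -0.06 to 1.75). It went from -0.21 to 1.63 in tumor 307, where 6 were higher in the lung and Lum was lower, from 4.43 to 2.62. Their part in the result was not tested. Cdh13 differed by -0.71 and 0.12, and Cdh3 by -0.20 and 0.88, the Cdh3 value of lung tumor 323 being near background. The deposited table gave each of these differences the same sign.

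In the fit of 3 groups, lung (n = 2) minus mammary sarcomatoid (n = 3) was -2.82 for Cdh1 (SE 1.12, interval -5.36 to -0.27, limma adjusted p = 0.668) and -3.49 for Epcam (SE 1.64, adjusted p = 0.723). It was 1.14 for Cdh2 (adjusted p = 0.868) and 0.86 for Vim (adjusted p = 0.897). Without tumor 470, which adds to the spread in this fit, Cdh1 kept -2.82 with a smaller SE of 0.84 (adjusted p = 0.442) and Epcam -3.49 with an SE of 0.51 (adjusted p = 0.126). With tumor number as a fixed block, in which tumor 594 has no lung partner, Cdh2 was at 2.01 (adjusted p = 0.694) and the concordant Cdh11 probes at -0.15 and -0.35. No member was called, and Cdh1 had an unadjusted p below 0.05, joined by Epcam without tumor 470. Of all probes 0.00486% were called and 7.04% had an unadjusted p below 0.05, and 0.0146% were called without tumor 470. Over all probes, 28.5% were lower in the lung in both pairs and 28.9% higher in both.

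**Figure D4:**
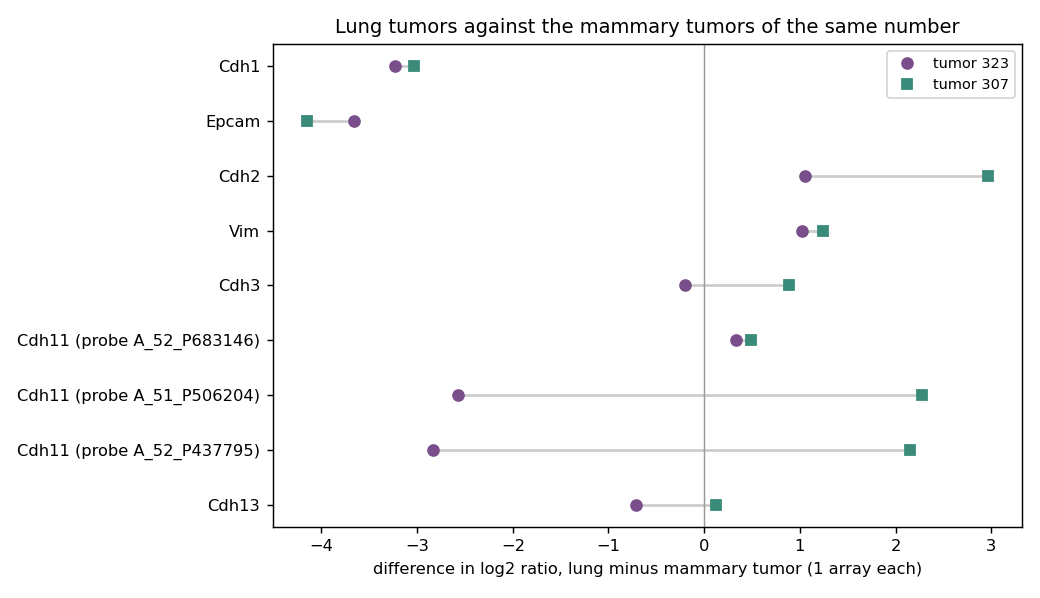
Difference in log2 ratio, lung minus mammary tumor, for tumor 323 (circles) and tumor 307 (squares), 1 array each side. Cdh1 and Epcam lie left of 0 and Cdh2 and Vim right of 0 in both pairs, while the concordant Cdh11 probes lie near -2.58 and 2.28 on opposite sides.

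Of 6 lung epithelium genes, Scgb1a1 was well above background on 9 arrays, Scgb3a1 and Ager on 8, Sftpb on 5, Sftpc on 4 and Sftpa1 on 0. Scgb3a1, a secretory protein of airways, was at 1.59 in lung tumor 323 and between -0.13 and 0.66 on the other 9 arrays. The mean log2 ratio of the list was 0.20 and 0.29 in the lung tumors, between -0.16 and 0.15 in mammary sarcomatoid carcinomas and between 0.02 and 0.33 in adenocarcinomas. The part of lung tissue in the lung differences was not tested.

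File headers name 3 versions of the feature extraction protocol. The size of each difference moved with the version, and for Epcam the sign turned as well. Within version 2 (tumors 307 and 594 against 105 and 470) the sarcomatoid minus adenocarcinoma difference was -0.34 for Cdh1, 0.45 for Epcam, 0.09 for Cdh2 and 0.45 for Vim. Within version 3 (both lung tumors against 131, 17 and 85) it was -3.27, -5.48, 2.02 and 2.38 in the same order. Version 1 held tumor 323 alone. Version 3 holds both lung tumors and no mammary sarcomatoid one, and version 2 holds tumor 470, so protocol, site and that tumor cannot be told apart here. On the shared slides Epcam was at -1.91 for tumor 307 minus 105 and 2.82 for tumor 594 minus 470, and Vim at 1.31 and -0.40.

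The proteins that work with the cadherins were taken from a list. Of 15 cadherin-catenin partners, 2 were higher and 4 lower at an unadjusted p below 0.05 in sarcomatoid carcinomas, 0 passed adjustment, and the median difference was -0.26, beside -0.01 over all probes. Among all probes 4.74% were higher and 5.10% lower at that p. The alpha-, beta- and p120-catenins, which tie cadherins to actin and hold them at the membrane, gave -0.14 (SE 0.18, Ctnna1), -0.52 (SE 0.41, Ctnnb1) and -0.26 (SE 0.16, Ctnnd1), with limma adjusted p of 0.861, 0.746 and 0.666. Jup, the plakoglobin of junctions and desmosomes, gave -0.80 (SE 0.27, limma adjusted p = 0.421). Nectin3, a partner adhesion protein, was the 1 gene of this list called without tumor 470, at 2.19 (adjusted p = 0.0146), where 1.54% of all probes were called. With all 10 tumors it was at 1.58 (adjusted p = 0.447), and tumor 470 had the highest value of all arrays, 1.97.

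Of 5 genes listed as a relative or partners of Epcam, 2 were higher and 3 lower in sarcomatoid carcinomas, with a median of -0.53. At an unadjusted p below 0.05, 1 was lower and 0 were higher, where 5.10% of all probes were lower and 4.74% higher. For mammary tumors alone 3 were higher and 2 lower, with a median of 0.025. At an unadjusted p below 0.05, 1 was lower there, beside 4.26% of all probes. By sign alone 48.7% of all probes were higher and 51.3% lower in each comparison. Cldn7, the claudin that binds Epcam, gave -2.28 (SE 1.30, limma adjusted p = 0.623), and in the lung it differed from the mammary sarcomatoid carcinomas by -3.94 (adjusted p = 0.637). Cd9, a tetraspanin, gave -0.93 (SE 0.21, limma adjusted p = 0.377), and -1.06 (adjusted p = 0.0431) without tumor 470.

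Among 9 other cadherins, of which Cdh5 and Cdh15 are also on the endothelial and muscle marker lists, 0 had an unadjusted p below 0.05, and the median was 0.05. Of all probes, 4.74% were higher and 5.10% lower at that p. Only 1 of the 9 was well above background in red on all arrays and 2 were on none, so the median rests largely on dim probes. Cdh5, the cadherin of vessels, averaged 3.25 ± 0.78 (SD, n = 5) among the sarcomatoid tumors, against 3.31 ± 0.81 (SD, n = 5) among the adenocarcinomas, a difference of -0.05 (limma adjusted p = 0.983). Cdh15, the cadherin of muscle, gave 1.31 (SE 0.73, adjusted p = 0.606). For mammary tumors alone it gave 2.10. It was the 1 gene of the 9 with an unadjusted p below 0.05 there, where 4.81% of all probes were higher at that p. Of 6 other intermediate filament genes 0 had an unadjusted p below 0.05, with a median of -0.01, and Des (desmin) gave -0.54 (SE 1.12, adjusted p = 0.921).

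Regulators of the switch were taken from another pair of lists. Of 6 EMT factors (Snai1, Snai2, Twist1, Twist2, Zeb1 and Zeb2), 4 had an unadjusted p below 0.05, all higher in sarcomatoid carcinomas, with a median of 1.35 and 0 called, where 4.74% of all probes were higher at that p. Without tumor 470, Zeb1 (1.94, limma adjusted p = 0.0363) and Zeb2 (2.59, adjusted p = 0.0235), both repressors of Cdh1, were called, among 1.54% of all probes. With all 10 tumors Zeb1 was at 1.46 (adjusted p = 0.438) and Zeb2 at 2.09 (adjusted p = 0.381). Of 5 epithelial factors (Grhl2, Ovol1, Ovol2, Esrp1 and Elf3), 5 were lower at an unadjusted p below 0.05, with a median of -1.08 and 0 called, where 5.10% of all probes were lower at that p. Esrp1 and Elf3 are also on the epithelial marker list by which tumor 470 stood apart. Of the others, Ovol1, which holds cells epithelial, was called without that tumor (-1.18, adjusted p = 0.0375). With all 10 tumors Ovol1 was at -0.92 (adjusted p = 0.414). For mammary tumors alone, 1 of the 6 EMT factors was higher at an unadjusted p below 0.05 and 1 of the 5 epithelial factors lower. Of all probes 4.81% were higher and 4.26% lower at that p. By sign alone, all 6 EMT factors were higher there and all 5 epithelial factors lower.

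Cell type markers differed beside the members. The 7 epithelial markers were all lower in sarcomatoid carcinomas, 5 of them at an unadjusted p below 0.05, with a median of -1.76. The 7 myeloid markers were all higher at that p, with a median of 1.56, their mean being 1.88 to 2.76 in sarcomatoid carcinomas and -0.07 to 2.18 in adenocarcinomas. Of all probes, 4.74% were higher and 5.10% lower at that p, and by sign alone 48.7% were higher and 51.3% lower. Myeloid cells and fibroblasts hold vimentin too, and their part in the Vim difference was not tested. The 7 fibroblast markers had a median of 0.75 with 0 at an unadjusted p below 0.05, and their mean ran from -1.25 to 1.63 in sarcomatoid carcinomas and from -2.27 to 2.05 in adenocarcinomas. The 6 endothelial markers had a median of -0.01, the 5 adipocyte markers -0.40, the 5 skeletal muscle markers -1.06, and the 5 basal or myoepithelial markers -0.79, with 0 genes of these lists at an unadjusted p below 0.05. For mammary tumors alone the 7 epithelial markers were again all lower, with a median of -1.26, but 0 were at that p. The 7 myeloid markers were all higher at that p there, with a median of 1.54. The shares over all probes were 4.81% higher and 4.26% lower in that comparison.

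**Figure D5:**
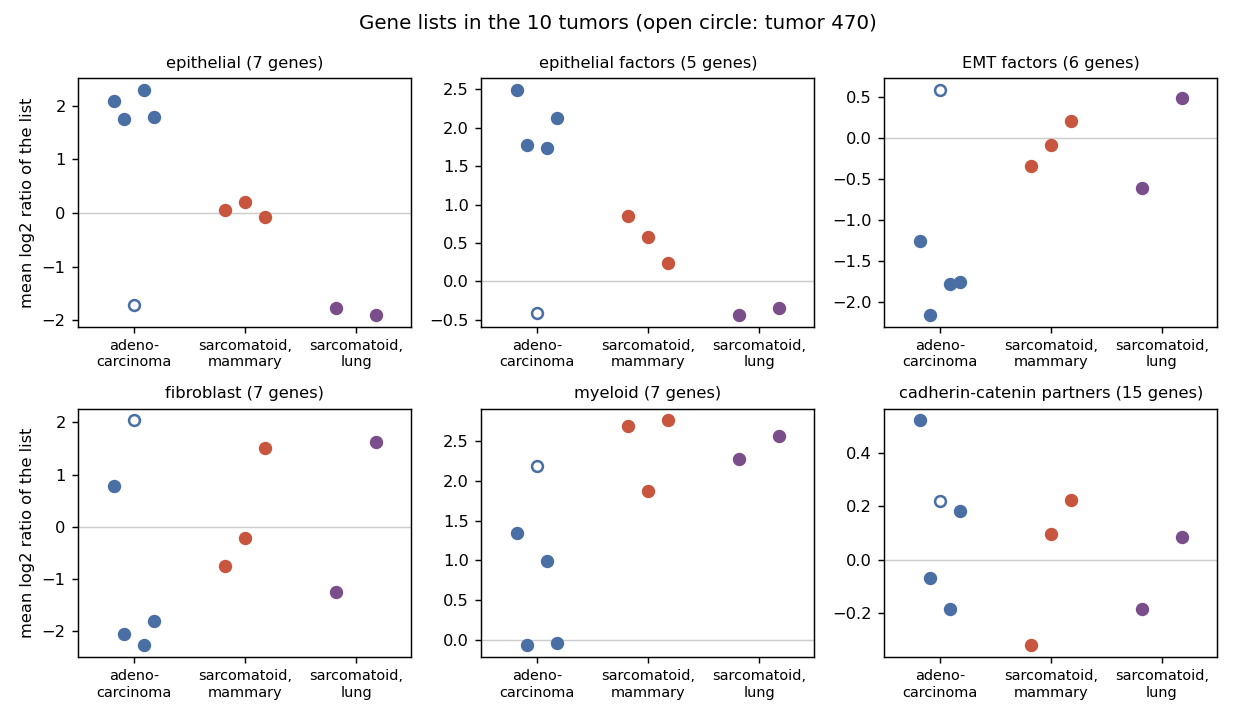
Mean log2 ratio of tumor over reference of 6 gene lists, 1 point per tumor by group and site, with tumor 470 as an open circle. Epithelial markers fall into 3 sets, at 1.75 to 2.30, at -0.08 to 0.20, and at -1.90 to -1.70 with tumor 470, while the means of the cadherin-catenin partners overlap between all 3 classes.

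The genes with the pattern most like each member were taken over the 10 arrays, as Pearson correlations with no p. Epcam was most like Cited4 (0.99), Rab25 (0.99), a trafficking protein of epithelia, and Cldn7 (0.98). Vim was most like Fndc3b (0.98), Ppp1r18 (0.97) and Msn (0.96), the actin linker moesin. Cdh1 was most like Plb1 (0.95), Polr3k (0.95) and Marchf8 (0.95), Cdh2 like Snx12 (0.93), Plcl1 (0.90) and Kpna4 (0.89), and Cdh13 like Rcan1 (0.94), Nsg1 (0.94) and 2610042L04Rik (0.93). Cdh3 was most like Nos1 (0.98), Fzd4 (0.93) and Cyfip2 (0.91), and its ratios rest on tumor 105 and lung tumor 307. For the Cdh11 probe A_51_P506204, added after its values were seen, they were Fap (0.97), Dnm3os (0.96) and Aspn (0.96), where Fap marks activated fibroblasts and Aspn is a matrix proteoglycan. The 10 arrays came from 8 tumor origins, 2 of them with a pair of arrays each, and share 1 reference, and each gene was picked as the highest of 17986 probes.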

How the data were processed

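Per the labels, total RNA of 10 mouse tumors was put on Agilent arrays. The authors deposited scanner files with spot intensity in both channels, and a normalized table on a log2 scale made with limma, whose steps are not given in the sources used here. Intensities were corrected with normexp (offset 50) and normalized by loess within each array (R 4.3.3, limma 3.58.1). Control spots and spots with outlier flags (0.228% to 0.576%) were dropped before a probe's remaining spots were averaged. Probes were named from the file of tumor 323 (mm7 coordinates) and RefSeq GRCm38.p6 symbols.

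All 41174 probes entered limma's lmFit and eBayes (two-sided, Benjamini-Hochberg, threshold 0.05), tested on simulated data. Probes well above background in red on at least 5 arrays (9 of 13) are described. A list gene is its brightest probe, and listed genes are named if on a preset short list or called, except markers by which tumor 470 was set apart. The members and lists were chosen with earlier results of these data known. Tumors of 2 pairs share an origin, which p-values ignore, and p-values measure only the spread between these arrays. Alternatives were the deposited table, other background and scaling choices, protocol version, slide, tumor number and leaving out each array. Precision is limited by the number of arrays. One listed gene is not reported here.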

Additional observations from a re-analysis of the deposited data

Results flagged for a closer look

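Among 18 sets of 5 values, 1 set per probe and group, an array distant from the other 4 was found in 2, and chance gives about 1 in 20. Epcam in adenocarcinoma 470 was at a log2 ratio of -2.62 (gap over range 0.771), and Cdh3 in adenocarcinoma 105 was at 2.08 (gap over range 0.832).

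Lung minus mammary differences had opposite signs in the tumors numbered 307 and 323 for 4 probes, and the difference between the pairs was not tested. At Cdh11 probe A_51_P506204 it was 2.28 in tumor 307 and -2.58 in tumor 323, and at Cdh11 probe A_52_P437795 it was 2.15 and -2.84. For Cdh3 it was 0.88 and -0.20, and for Cdh13 it was 0.12 and -0.71. Of the 9 described probes, 2 were lower and 3 higher in the lung in both pairs. Over all probes 28.5% were lower in both and 28.9% higher in both, so opposite signs were common.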

How the results depend on the processing

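Under 21 alternatives for sarcomatoid against adenocarcinoma, 20 for mammary sarcomatoid against adenocarcinoma and 21 for lung against mammary sarcomatoid, 0 settings called any member probe. Of 27 member differences, 16 kept their sign throughout. Leaving out 1 array turned the sign of some values, and not only of small ones. The concordant Cdh11 probes in the lung stood at -1.02 and -1.23 in the main fit, and Cdh2 in mammary tumors at 0.59. Sarcomatoid minus adenocarcinoma ran from -0.44 to 0.16 for Cdh3 (higher without tumor 105) and from -0.75 to 0.013 for Cdh13 (higher without tumor 470). Mammary sarcomatoid minus adenocarcinoma ran from -0.78 to 0.19 for Cdh1 (turned without tumor 594, 105 or 131), from -0.28 to 1.54 for Cdh2 (turned without 594), from -0.48 to 0.053 for Cdh3 (turned without 105) and from -0.57 to 0.19 for Cdh13 (turned without 470). Lung minus mammary ran from -0.41 to 0.94 for Cdh3 (turned without lung 307), from -3.14 to 1.10 and from -3.34 to 0.89 for the concordant Cdh11 probes, and from -1.16 to 0.29 for Cdh13 (these turned without lung 323). The deposited table gave 0.21 for Cdh1 in mammary tumors. Protocol version as a term gave 0.45 for Epcam in mammary tumors, and in the lung 1.27 and 1.23 for Cdh11 and 1.29 for Cdh13. The cause was not tested. List medians moved by more than the spread in 2 of 132 alternatives, both with Agilent's processed signals (epithelial factors -2.06, other cadherins 0.34). Replicate numbers follow accession order and pair nothing. For lung against mammary tumors, tumor number as a replicate block changed no call and no sign. The planned quantile step after loess was run on the log ratios. Cdh3 is limited by signal over background.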
